A study of Mus musculus with 6 samples.

Results

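The miRNAs miR-297, miR-466, miR-467 and miR-669, with all their lettered members, were followed in short RNAs bound to Argonaute (Ago) proteins in the mouse brain. Most of them are made from the Sfmbt2 cluster, a large block of miRNA hairpins found in mouse and rat inside an intron of the gene Sfmbt2. Members were chosen by name, as all mature miRNAs with 1 of these 4 numbers and any letter or arm. No measured value entered that rule, although earlier results of these data were known when it was set. This gave 38 mature names of the 782 that were above 0 in at least 1 sample, and 153 read sequences of 65087. Of the 38 names, 22 were 5p arms, 13 were 3p arms and 3 had no arm in the name. Reads that the deposited annotation could not assign to a single miRNA kept joint names, which was the case for 6 members.

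The 6 samples came from 3 WT mice and 3 Tau tg mice. All were male C57BL/6J animals aged 3 months per the study's methods, and the Tau tg mice carried the coding sequence of a fragment of human tau under the Thy 1.2 promoter, which drives expression mainly in neurons. The protocol describes the tissue as cortex pooled with hippocampus, whereas the source label of each sample mentions the hippocampus only. Ago proteins were pulled down with a GW182 peptide, and levels are given in RPM, reads scaled to a common library size, so they describe RNA held by Ago and not total RNA. In such bulk tissue, fewer cells of a type and less RNA per cell cannot be told apart.

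A miRNA guides Ago to mRNAs that pair with its seed, the bases just after its 5′ end, and the mRNAs are then repressed. A hairpin can give a miRNA from its 5′ side (5p arm) or its 3′ side (3p arm). Sfmbt2 encodes a Polycomb protein and is imprinted in the early embryo and the placenta, where the paternal copy is used, and the miRNAs in its intron are best known for their part in placental growth. They arose by repeated duplication, so that many copies carry the same or almost the same sequence. The study asked whether Ago in the Tau tg brain holds RNAs with more toxic seeds. To that end each 6mer seed, read positions 2 to 7, was given a 6mer seed viability. This is how many cells, in percent and as an average of 3 murine cell lines, survived transfection of an RNA carrying the seed, and toxic seeds have low values.

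The commonest deposited read of each of the 10 most abundant members follows, 5′ to 3′ and as DNA letters, since these sequences set which hairpins a read can come from and which seed it carries. Capitals mark positions 2 to 8, the seed with 1 further base.
miR-467a-5p: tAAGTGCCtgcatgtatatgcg
miR-669a-3p/miR-669o-3p: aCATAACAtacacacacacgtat
miR-669a-5p/miR-669p-5p: aGTTGTGTgtgcatgttcatgt
miR-669d-5p: aCTTGTGTgtgcatgtatatgt
miR-669c-5p: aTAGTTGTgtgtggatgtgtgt
miR-467e-5p: aTAAGTGTgagcatgtatatgt
miR-466d-3p: tATACATAcacgcacacatagt
miR-467b-5p: gTAAGTGCctgcatgtatatgc
miR-467d-5p: tAAGTGCGcgcatgtatatgcg
miR-467c-5p: tAAGTGCGtgcatgtatatgtgt

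The 5p reads of miR-467 shared the letters AAGTG near their start. Many of the others held short repeats of TG on the 5p arm or of AC on the 3p arm. The letters UGUGUG stood in the commonest read of 18 of the 38 members (47.4%) and of 4 of 744 other miRNAs (0.538%). Among the members, 17 of the 22 5p arms held them and 0 of the 13 3p arms did. The letters ACACAC stood in 10 of the 38 members (26.3%), of which 8 were among the 13 3p arms, and in 4 of the other miRNAs (0.538%). Both motifs were searched on the read strand only.

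In the GENCODE M21 annotation of GRCm38, 71 of the 81 hairpin genes with these numbers lay inside Sfmbt2 (chr2:10370510-10595253, plus strand) and on its strand. They spanned 51.6 kb (chr2:10466663-10518279) of a single intron, chr2:10461473-10523944, which is intron 10 of one annotated transcript and intron 11 of another, and 0 overlapped an exon. A further 48 miRNA genes with clone names lay inside Sfmbt2 on the same strand. The 71 hairpins comprised 29 named Mir669, 23 Mir466, 14 Mir467 and 5 Mir297. The other 10 lay on other chromosomes.

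**Figure D1:**
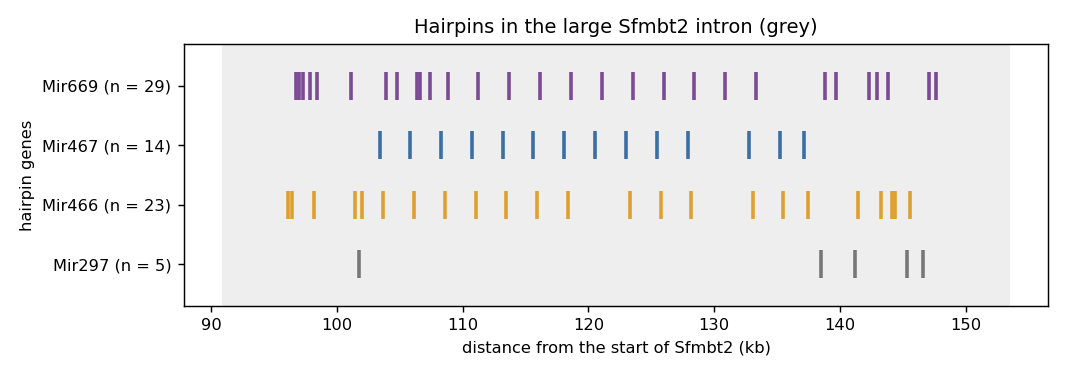
Position of the 71 hairpin genes inside Sfmbt2, in kb from the start of the gene, with a row for each miRNA number and a tick for each hairpin. The grey field is the intron that holds them, and Mir466, Mir467 and Mir669 hairpins alternate along it.

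Of the 153 member sequences, 106 matched a hairpin exactly, and all but 1 of these matched at least 1 hairpin inside Sfmbt2. In abundance, 99.9% of the exactly matching RPM fell on such hairpins. The reads had been named by sequence and were matched here to annotated miRNA hairpins only, so a high share was built in. Whether they could come from elsewhere in the genome was not tested. Of the exactly matching sequences, 68 matched 2 or more hairpins (77.2% of that RPM), and a single read matched as many as 16. The commonest read of miR-669a-3p/miR-669o-3p matched 13 hairpins and that of miR-467a-5p matched 12, the same 12 as the commonest read of miR-467b-5p. The split of reads between miR-467a-5p and miR-467b-5p is therefore uncertain, and so is that between the 3p arms of miR-467a and miR-467d, whose commonest reads also matched 12 hairpins each. By contrast, the commonest reads of miR-467c-5p (Mir467c, chr2:10473931-10474027), miR-467d-5p (Mir467d, chr2:10507630-10507714), miR-467e-5p (Mir467e, chr2:10505721-10505807) and miR-669c-5p (Mir669c, chr2:10509296-10509404) each matched 1 hairpin. That of miR-669d-5p matched 2 hairpins, Mir669d (chr2:10468343-10468463) and Mir669d-2 (chr2:10471644-10471729).

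Depth differed between samples. The deepest, Tau tg 1, held 30 members above 0 and the others 22 to 27. Whole read numbers could be recovered from the RPM and came to 998248 to 2050054 reads in the WT samples and 1152568 to 6879551 in the Tau tg samples. A count of 0 was taken to allow up to 3 reads, which is 0.427 RPM in Tau tg 1 and 2.75 RPM in the shallowest, WT 3. That limit was set and is not a floor of the data, since values of a single read occur. For example, the 0.917 RPM of miR-466c-5p in WT 3 is 1 read. Member reads numbered 1871, 2188 and 646 in WT 1, WT 2 and WT 3 and 7160, 1318 and 2372 in Tau tg 1, Tau tg 2 and Tau tg 3. The miRNAs of neurons (miR-124, miR-128, miR-9 and miR-138) summed to 149184 to 172641 RPM per sample. All 10 listed miRNAs of pituitary or epithelium were found (miR-200a, miR-200b, miR-200c, miR-141, miR-429, miR-375, miR-7a, miR-183, miR-182 and miR-96). Their sum did not overlap between groups, with 4327 to 11842 RPM for WT against 3478 to 3583 for Tau tg. The sum does not show how many of the 10 differed. The sums of the other lists computed all overlapped between groups. These were the lists of neurons, oligodendrocytes, microglia or leukocytes, red blood cells, choroid plexus (5 of 6 listed miRNAs found), endothelium and the X-linked cluster of placenta or trophoblast. The part of any list in the results below was not tested.

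Together the members made up about 0.1% of what Ago held. Their summed level was 876, 1483 and 593 RPM in WT 1, WT 2 and WT 3 and 1019, 1102 and 970.5 RPM in Tau tg 1, Tau tg 2 and Tau tg 3. The means were 984 ± 455 and 1031 ± 66.7 RPM (SD, n = 3 each), the WT samples held both the highest and the lowest value, and the groups overlapped. The difference of 46.6 RPM was well under the SD of the WT group, and it was 296 RPM without WT 2 and -149 RPM without WT 3. The imprinted miR-379 to miR-410 cluster, the other large imprinted miRNA cluster of the mouse, had 67 names and a sum of 24508 ± 4626 RPM in WT against 25391 ± 3064 RPM in the Tau tg samples.

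The miR-669 and miR-467 members carried most of the level, with 42.9% and 41.3% of it, followed by miR-466 with 12.2% and miR-297 with 3.62%. The miR-669 members summed to 300.3, 818 and 255 RPM in the WT samples and 361, 489 and 368.6 RPM in the Tau tg samples. WT 2 was above all others. The miR-467 members summed to 434, 486.5 and 143 RPM in the WT samples and 515, 503 and 417 RPM in the Tau tg samples. WT 3 was below all others. The miR-466 members varied less, from 106 RPM in Tau tg 1 to 154.5 RPM in WT 2.

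**Figure D2:**
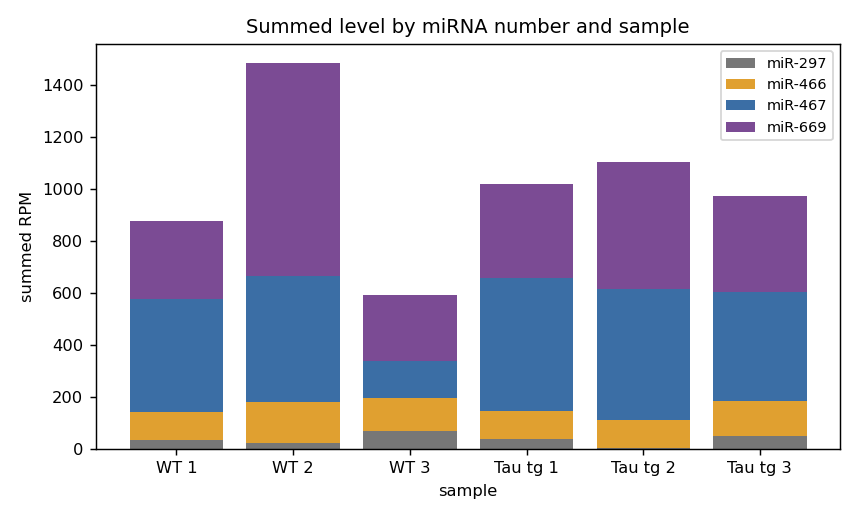
Summed RPM of the members in each of the 6 samples, stacked by miRNA number. WT 2 is the tallest bar at 1483 RPM and WT 3 the shortest at 593 RPM, while the 3 Tau tg bars lie between 970 and 1102 RPM.

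The 2 most abundant members held 42.7% of the members' RPM. The median member had a mean of 8.79 RPM, 15 members were above 0 in all 6 samples, and 7 were above 0 in a single sample. Even the leading member, miR-467a-5p, ranked 212 among the 782 names.

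AAGUGC was the commonest seed of the 5p arms of miR-467a to miR-467d. It is also the seed of the miR-302 family of embryonic stem cells. miR-467a-5p measured 242, 337 and 79.8 RPM in WT 1, WT 2 and WT 3 and 305, 285 and 161 RPM in Tau tg 1, Tau tg 2 and Tau tg 3. miR-467b-5p measured 40.3, 56.9 and 24.8 RPM in WT 1, WT 2 and WT 3 and 54.8, 4.18 and 28.2 RPM in Tau tg 1, Tau tg 2 and Tau tg 3. Both were seen in every sample and their groups overlapped. miR-467c-5p measured 0.936, 22.4 and 22.9 RPM in WT 1, WT 2 and WT 3 and 31.7, 10.04 and 68.3 RPM in Tau tg 1, Tau tg 2 and Tau tg 3, with WT 1 the lowest. miR-467e-5p measured 50.1, 62.3 and 5.50 RPM in WT 1, WT 2 and WT 3 and 15.1, 71.9 and 85.9 RPM in Tau tg 1, Tau tg 2 and Tau tg 3. Its commonest read, like that of miR-467b-5p, starts 1 base earlier in the shared frame and has the seed UAAGUG.

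miR-467d-5p was the member in which the groups stood furthest apart by test. It measured 30.4, 2.71 and 4.59 RPM in WT 1, WT 2 and WT 3 and 61.2, 49.3 and 46.2 RPM in Tau tg 1, Tau tg 2 and Tau tg 3. All 3 Tau tg samples were above all 3 WT samples, of which WT 2 and WT 3 were low and WT 1 was in between. The means were 12.6 ± 15.5 and 52.3 ± 7.89 RPM (SD, n = 3 each). On the log2(RPM + 1) scale, which understates the change of low values, the difference was 2.61 ± 0.98 (SE; unadjusted p = 0.0169 in limma), or 2.36 relative to the median of all miRNAs. It did not pass adjustment over all 689 miRNAs tested (adjusted p = 0.896 in limma, 0.15 to 0.96 over the alternatives). The unadjusted p was between 0.0514 and 0.0625 in limma when any 1 of the 3 Tau tg samples was left out, and 0.0661 in edgeR on the recovered reads. Its commonest read, tAAGTGCGcgcatgtatatgcg, measured 12.6, 0 and 0.917 RPM in the WT samples and 13.9, 26.8 and 22.5 RPM in the Tau tg samples (log2 difference 2.85 ± 1.03, unadjusted p = 0.00589, adjusted p = 0.584 in limma). The unadjusted p was 0.233 in edgeR, 0.285 in DESeq2 and 0.0512 in limma among sequences of at least 10 RPM. That read matched Mir467d alone.

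The 3p arms of miR-467 were less abundant. miR-467a-3p measured 22.95, 2.03 and 3.67 RPM in WT 1, WT 2 and WT 3 and 29.0, 41.0 and 18.0 RPM in Tau tg 1, Tau tg 2 and Tau tg 3, and miR-467d-3p measured 42.2, 2.71 and 1.83 RPM in WT 1, WT 2 and WT 3 and 14.4, 41.0 and 8.59 RPM in Tau tg 1, Tau tg 2 and Tau tg 3. In both, WT 2 and WT 3 were low and WT 1 lay among the Tau tg samples. Their log2 differences of 2.05 ± 1.07 and 1.26 ± 1.22 had unadjusted p of 0.0740 and 0.318 in limma (adjusted p = 0.896 each). Without WT 1 the unadjusted p was 0.0119 and 0.0448, and the adjusted p 0.424 and 0.634.

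Among the miR-669 members, miR-669a-3p/miR-669o-3p was the most even between mice, with 186, 319.8 and 133.9 RPM in WT 1, WT 2 and WT 3 and 212, 196 and 121 RPM in Tau tg 1, Tau tg 2 and Tau tg 3. Its seed, CAUAAC, was almost its own, since member reads made up 92.2% of all RPM with that seed. Its commonest read was less even, with 109, 201 and 104 RPM in the WT samples and 100, 66.1 and 49.5 RPM in the Tau tg samples. The groups of that read did not overlap (log2 difference -0.92, unadjusted p = 0.163, adjusted p = 0.584 in limma). Its next most abundant read, of 21 bases, went the other way (log2 difference 1.65, unadjusted p = 0.0309, adjusted p = 0.584 in limma), and its groups overlapped. The opposite arm, miR-669a-5p/miR-669p-5p, measured 14.1, 225 and 37.6 RPM in WT 1, WT 2 and WT 3 and 29.5, 62.7 and 17.2 RPM in Tau tg 1, Tau tg 2 and Tau tg 3. WT 2 exceeded every other sample by more than the range of the rest. WT 2 was also the highest for miR-669d-5p, which measured 6.09, 166 and 19.3 RPM in WT 1, WT 2 and WT 3 and 34.7, 93.7 and 42.1 RPM in Tau tg 1, Tau tg 2 and Tau tg 3. Without WT 2, the log2 difference of miR-669d-5p was 2.13 (unadjusted p = 0.0254, adjusted p = 0.96 in limma), against 0.87 (unadjusted p = 0.396) with it.

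miR-669c-5p went the other way in WT 2, with 58.6, 2.03 and 36.7 RPM in WT 1, WT 2 and WT 3 and 32.3, 66.1 and 109 RPM in Tau tg 1, Tau tg 2 and Tau tg 3. The Tau tg mean was 69.1 ± 38.4 RPM and the WT mean 32.4 ± 28.5 RPM (SD, n = 3 each; log2 difference 1.72 ± 1.02, unadjusted p = 0.112 in limma, and 0.0466 with an adjusted p of 0.634 without WT 1). Its commonest read alone had 26.7, 1.35 and 35.8 RPM in the WT samples and 20.1, 65.2 and 70.0 RPM in the Tau tg samples and an unadjusted p of 0.0319 (adjusted p = 0.584 in limma). That p was above 0.05 in 9 of 16 alternatives, among them 0.508 without WT 2, 0.154 without Tau tg 2, 0.148 without Tau tg 3, 0.248 in edgeR and 0.502 in DESeq2. The groups overlapped for the miRNA and for the read.

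miR-669f was seen with both arms. miR-669f-5p measured 0, 48.1 and 0 RPM in WT 1, WT 2 and WT 3 and 13.1, 7.53 and 18.8 RPM in Tau tg 1, Tau tg 2 and Tau tg 3, and was at 0 in 2 of the WT samples. miR-669f-3p measured 4.22, 55.6 and 3.67 RPM in WT 1, WT 2 and WT 3 and 21.8, 0.836 and 11.5 RPM in Tau tg 1, Tau tg 2 and Tau tg 3. miR-669l-5p measured 26.7, 0 and 22.0 RPM in WT 1, WT 2 and WT 3 and 5.41, 0 and 0 RPM in Tau tg 1, Tau tg 2 and Tau tg 3, and was thus seen in 2 WT samples and 1 Tau tg sample. The log2 difference of miR-669f-5p was 1.87 ± 1.45 (unadjusted p = 0.217 in limma) but -0.44 in edgeR and -0.45 in DESeq2. Without WT 2 it was 3.74 (unadjusted p = 0.0111, adjusted p = 0.929 in limma). That of miR-669l-5p was -2.21 ± 1.45 (unadjusted p = 0.146), and -3.76 without WT 2 (unadjusted p = 0.0123, adjusted p = 0.929 in limma).

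Of the miR-466 members, miR-466a-3p/miR-466e-3p was the steadiest and, among members above 0 in every sample, the second whose groups did not overlap. It measured 17.8, 20.3 and 13.8 RPM in WT 1, WT 2 and WT 3 and 28.2, 43.5 and 24.5 RPM in Tau tg 1, Tau tg 2 and Tau tg 3, with means of 17.3 ± 3.31 and 32.1 ± 10.1 RPM (SD, n = 3 each). Its log2 difference of 0.83 ± 0.83 had an unadjusted p of 0.335 in limma. With only its commonest seed the difference was 2.88 (unadjusted p = 0.0434, adjusted p = 0.892 in limma). Its commonest read, which matched 14 hairpins, was less even than the sum. That read measured 0, 18.3 and 0 RPM in the WT samples and 6.12, 16.7 and 16.8 RPM in the Tau tg samples. The groups of miR-669b-5p, named after its values were seen, did not overlap either, but it was above 0 in only 1 WT sample, with 0, 0 and 0.917 RPM in WT 1, WT 2 and WT 3 and 1.14, 10.9 and 9.82 RPM in Tau tg 1, Tau tg 2 and Tau tg 3. miR-466d-3p measured 25.8, 3.39 and 110.1 RPM in WT 1, WT 2 and WT 3 and 20.6, 50.2 and 61.0 RPM in Tau tg 1, Tau tg 2 and Tau tg 3, with both the highest and the lowest value in WT. miR-466c-5p measured 18.7, 30.5 and 0.917 RPM in WT 1, WT 2 and WT 3 and 30.7, 0 and 10.6 RPM in Tau tg 1, Tau tg 2 and Tau tg 3.

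miR-466h-3p was found almost wholly in 1 library. It measured 0, 71.1 and 0.917 RPM in WT 1, WT 2 and WT 3 and 0, 0 and 0.409 RPM in Tau tg 1, Tau tg 2 and Tau tg 3, so WT 2 held nearly all of it. limma gave an unadjusted p of 0.160, while edgeR on the recovered reads gave 0.0123.

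The miR-297 members were few. miR-297b-3p/miR-297a-3p/miR-297c-3p measured 0.468, 23.04 and 67.0 RPM in WT 1, WT 2 and WT 3 and 13.9, 1.67 and 11.9 RPM in Tau tg 1, Tau tg 2 and Tau tg 3. Its commonest read matched 4 hairpins and was high in WT 2 and WT 3 alone, with 0.468, 21.7 and 67.0 RPM in the WT samples and 0.285, 1.67 and 0.409 RPM in the Tau tg samples. miR-297a-5p measured 20.6, 0 and 0.917 RPM in WT 1, WT 2 and WT 3 and 12.2, 0 and 17.6 RPM in Tau tg 1, Tau tg 2 and Tau tg 3.

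**Figure D3:**
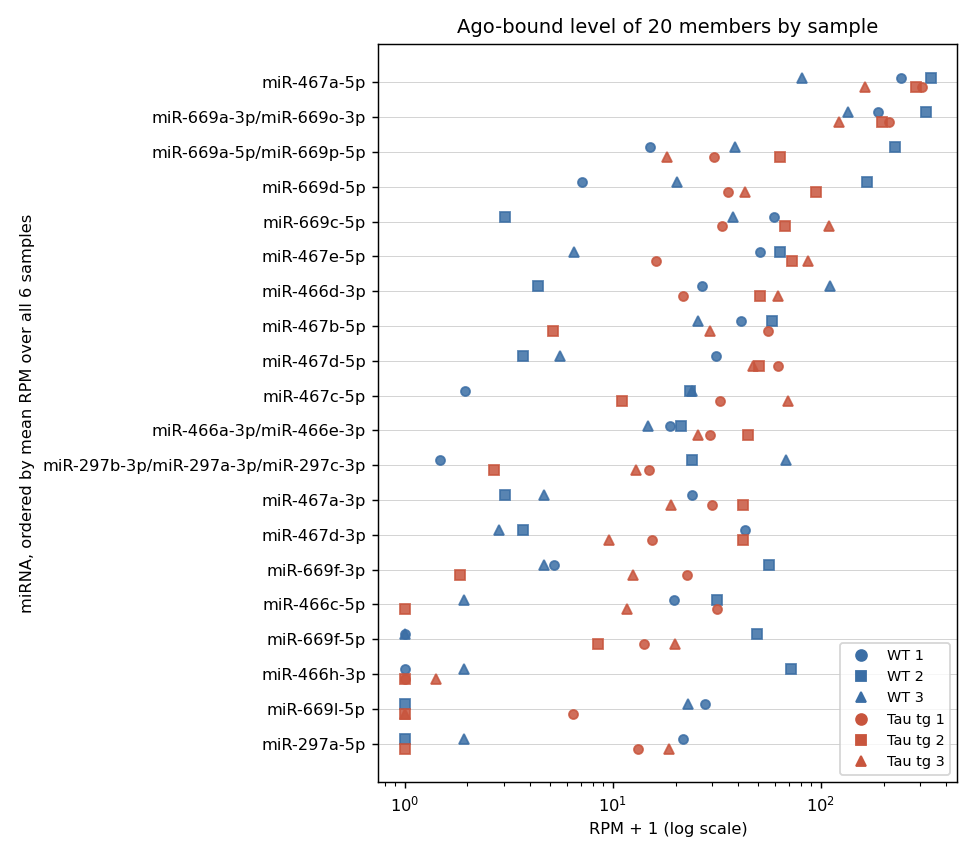
RPM + 1 of the 20 most abundant members in each sample on a log scale, ordered by mean RPM. Circles, squares and triangles are replicates 1, 2 and 3, blue for WT and red for Tau tg, and red lies fully to the right of blue for miR-467d-5p and miR-466a-3p/miR-466e-3p alone.

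The share of members called was near that of all miRNAs. Of 34 members with a mean of at least 1 RPM, 1 had an unadjusted p under 0.05 in limma (2.94%), miR-467d-5p, against 3.63% of the 689 miRNAs tested. The background was 2.03% for calls higher in Tau tg and 1.6% for calls lower in Tau tg, where 0 members were called. After adjustment limma called 0 members and 0 of the 689 miRNAs, where 25 had an unadjusted p under 0.05, and DESeq2 on recovered reads called 5 miRNAs, 0 of them members. When WT 1 was left out, 6 of 32 members had an unadjusted p under 0.05, as did 50 of 677 miRNAs. When WT 2 was left out, 4 of 34 members did, and 31 of 693 miRNAs. The count was 2 of 33 (31 of 683 miRNAs) when Tau tg 2 was dropped and 0 of 32 (18 of 678 miRNAs) when Tau tg 3 was dropped. Among the 15 members detected in every sample, the groups stood fully apart for 2, against a background of 9.53% of 472 miRNAs detected in every sample.

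The log2 difference was above 0 for 23 of the 34 members (67.6%) and for 438 of the 689 miRNAs (63.6%). Its median was 0.86 over the members, 0.25 over all miRNAs and 0.13 over 63 members of the miR-379 to miR-410 cluster, of which 0 had an unadjusted p under 0.05 in limma. The median of all miRNAs was 0.09 with median-of-ratios scaling and 0.06 with quantile normalization, where that of the members was 0.74 and 0.50. On recovered reads, the median was 0.49 over the members and 0.05 over all miRNAs in edgeR, and 0.44 and 0.006 in DESeq2. In both, 20 of the 34 members were above 0. Of the members, miR-466k, miR-669k-3p, miR-669k-5p and miR-466p-5p were at 0 in every WT sample. These passed the filter through the Tau tg samples alone and could only be above 0. By contrast, miR-466o-3p was at 0 in every Tau tg sample. The medians and counts are a description, with no test.

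Single read sequences were tested in the same way. Of 121 member sequences that reached a mean of 1 RPM, 10 had an unadjusted p under 0.05 in limma (8.26%), against 2.23% of the 36070 sequences tested. That background holds sequences of every RNA kind, with a median log2 difference of -0.16. A share over miRNA sequences alone was not computed, so the 2 shares are not a like comparison. In the direction higher in Tau tg there were 9 (background 1.44%), and in the direction lower in Tau tg there was 1 (background 0.787%), the commonest read of miR-297b-3p/miR-297a-3p/miR-297c-3p given above. After adjustment limma called 0 member sequences and 10 of all sequences (0.0277%). The reads with a mean of at least 10 RPM gave 0 calls among 20, and leaving out WT 2, WT 3, Tau tg 2 or Tau tg 3 gave 6, 6, 5 and 3. On recovered reads, edgeR called 7 member sequences, 2 of them higher in Tau tg, and DESeq2 called 9, 5 of them higher. Of the 734 sequences of the miR-379 to miR-410 cluster, limma called 40 (5.45%), 31 of them higher in Tau tg (4.22%). Of the 9 higher reads, 5 were at 0 in all 3 WT samples and so passed the filter through the Tau tg samples alone.

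The spread between mice of a group was compared over a common range of levels, as a description with no test. Levels were not matched inside the range, and the third most abundant member had a mean of only 64.3 RPM. Between means of 10 and 300 RPM, the median within-group SD of log2(RPM + 1) was 1.72 for 18 members, 0.803 for 264 other miRNAs and 0.729 for 26 miRNAs of the miR-379 to miR-410 cluster. The values of the members ranged from 0.352 for miR-466a-3p/miR-466e-3p to 2.37 for miR-466c-5p. At 0 in at least 1 sample were 3 of these 18 members, while 91.3% of the other miRNAs were above 0 in all 6. Members share sequence and so reads, and are not independent.

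**Figure D4:**
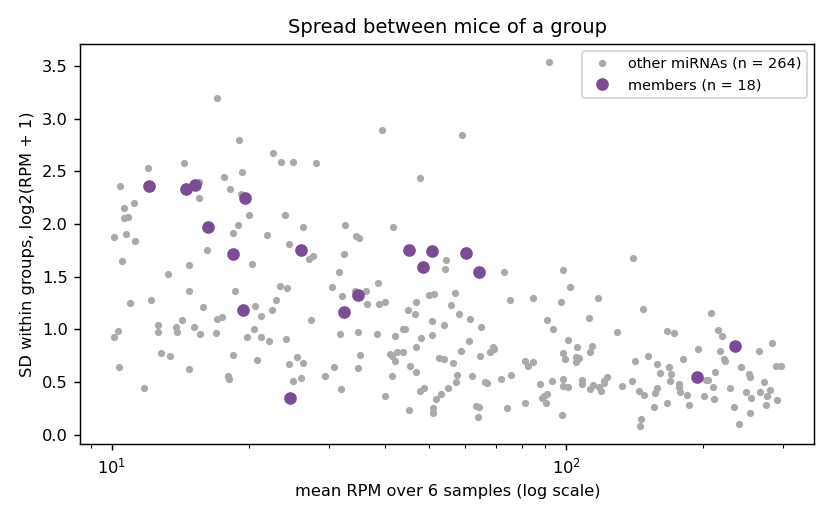
SD of log2(RPM + 1) within groups, pooled over WT and Tau tg, against the mean RPM over 6 samples (log axis), with a point for each miRNA between 10 and 300 RPM. The median over the members (purple) is 1.72 and that over the other miRNAs (grey) is 0.803.

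The use of the 2 arms was uneven. Over all members the 3p share was 37.6, 33.6 and 56.5% in WT 1, WT 2 and WT 3 and 34.2, 36.1 and 27.6% in Tau tg 1, Tau tg 2 and Tau tg 3. WT 3 stood above all others, and the difference of the means, -9.92 percentage points, was -2.95 without it. Of the 3 hairpin names that stood alone in both arms' names and had both at 10 RPM or more, miR-467a was mainly 5p, with a 3p share of 8.67, 0.599 and 4.40% in the WT samples and 8.69, 12.6 and 10.05% in the Tau tg samples. miR-467d had a 3p share of 58.1, 50 and 28.6% in the WT samples and 19.0, 45.4 and 15.7% in the Tau tg samples. In WT 2 it rests on 4 reads of each arm, and in WT 3 on 5 reads of the 5p arm and 2 of the 3p arm. The commonest 3p reads of miR-467a and miR-467d each matched 12 hairpins, and that of miR-467d-5p matched 1. The shares of these 2 names may therefore set reads of different hairpins against each other. miR-669f had one of 100, 53.6 and 100% and 62.4, 9.996 and 37.8%, and the 5p arm led in Tau tg 2 and Tau tg 3 only. These shares rest on few reads in 3 samples. WT 1 and WT 3 had 9 and 4 reads of miR-669f-3p and 0 of miR-669f-5p. Tau tg 2 had 1 read of miR-669f-3p and 9 of miR-669f-5p.

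Member reads carried 35 distinct 6mer seeds, and 24 of the 38 members shared their commonest seed with another member. AAGUGC (viability 81.9%) held 24.6% of the members' RPM, and members made up 74.0% of all RPM with that seed. CAUAAC (64.7%) followed with 17.7%, GUUGUG (56.5%), the seed of the 5p arms of miR-669a, miR-669f and miR-669l, with 8.35%, and AUACAU (90.7%), the seed of the 3p arms of miR-466a, miR-466d and miR-467d, with 7.28%. CUUGUG (67.4%) of miR-669d-5p held 5.85%. UAAGUG (84.2%), the commonest seed of miR-467e-5p but found in reads of 5 members, held 5.15%. The seed UAUACA (80.7%) was the commonest of 5 members, among them miR-297b-3p/miR-297a-3p/miR-297c-3p and miR-467a-3p. Members supplied only 7.53% of all RPM with it, and let-7b-3p gave more than all members together.

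The median viability of a member's commonest seed was 70.6%, against 60.1% over 744 other miRNAs, and 5 members had one under 50%, the lowest being GUGUGU of miR-466k with 22.4%. Weighted by RPM, the mean 6mer seed viability of member reads was 72.2 ± 1.80 and 72.2 ± 0.425% in WT and Tau tg (SD, n = 3 each), while that of all miRNA reads was 58.5 ± 1.35 and 57.7 ± 0.350%. The difference between groups in the members was 0.0217 percentage points, under either SD. It was 0.696 without WT 1, -0.999 without WT 2 and -1.69 without reads of joint names. Reads with a seed under 50% made up 6.68, 0.548 and 9.75% of member RPM in the WT samples and 9.59, 8.35 and 8.73% in the Tau tg samples, and 22.6 to 24.97% of the RPM of all miRNAs.

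The seed of a read depends both on where the read starts and on its bases. Reads with the commonest seed of their miRNA made up 82.8, 95.02 and 79.9% of member RPM in the WT samples and 80.4, 77.1 and 77.4% in the Tau tg samples, with WT 2 above the rest, against 92.2 to 93.1% over all miRNAs. The share was 34.5% for miR-467c-5p, 51.1% for miR-467b-5p, 56.1% for miR-467e-5p and 64.4% for miR-467d-5p, and it was 100% for miR-669c-5p and miR-669a-5p/miR-669p-5p.

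Reads of the miR-467 5p arms differed at a single site inside the seed, which was chosen for description after its values were seen. Among the member sequences, 15 differed from a hairpin by 1 base inside the read, and these made up 5.17% of member RPM, from 0.686% in WT 2 to 9.60% in WT 3. Over all miRNA reads such sequences made up 0.92%. Of the 15, 13 were A-to-G changes (99.0% of their RPM), while A-to-G made up 22.3% and U-to-C 21.9% of the RPM of other miRNAs' sequences with 1 difference. In 10 of the 13 the changed A was the same base of the miR-467 5p frame, at position 3 or 4 of the read depending on where it starts. The other 3 were A1G in reads of miR-669c-5p and miR-669a-3p/miR-669o-3p.

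The following read pairs show the site, with the annotated base first and the G form under it, and capitals again mark positions 2 to 8.
miR-467a-5p: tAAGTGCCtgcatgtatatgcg
miR-467a-5p with A3G: tAGGTGCCtgcatgtatatgcg
miR-467d-5p: tAAGTGCGcgcatgtatatgcg
miR-467d-5p with A3G: tAGGTGCGcgcatgtatatgcg
miR-467e-5p: aTAAGTGTgagcatgtatatgt
miR-467e-5p with A4G: aTAGGTGTgagcatgtatatgt

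The site is in the seed of every one of these reads. With G, the seed AAGUGC (viability 81.9%) reads AGGUGC (38.5%), and the seed UAAGUG (84.2%) reads UAGGUG (65.7%). In GRCm38 coordinates the annotated A lies at chromosome 2 position 10473943 in Mir467c, 10476357 in Mir467a-1, 10481259 in Mir467b, 10505734 in Mir467e and 10507642 in Mir467d, on the plus strand and in the intron. An 11th read with G at the site was not among the 13. None of the 11 G reads matched any of 141767 GENCODE transcripts exactly on either strand, while 22 of the 33 reads with A did on the sense strand. Mir467f, a hairpin outside Sfmbt2, holds UAGGUG too, but none of the G reads matched it exactly. No genome sequence was used, and what gave rise to the G was not tested.

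The share of miR-467 5p reads with G at the site was 8.24, 0.845 and 41.3% in WT 1, WT 2 and WT 3 and 12.8, 19.9 and 12.6% in Tau tg 1, Tau tg 2 and Tau tg 3. These rest on 61 of 740, 6 of 710 and 62 of 150 reads in WT and on 408 of 3190, 100 of 503 and 120 of 953 in Tau tg. The 95% Wilson intervals were 6.47 to 10.4%, 0.388 to 1.83% and 33.8 to 49.3% in WT and 11.7 to 14.0%, 16.6 to 23.6% and 10.6 to 14.8% in Tau tg, and they cover counting error only. The WT samples held the lowest and the highest share, with means of 16.8 ± 21.6% and 15.1 ± 4.15% (SD, n = 3 each), so the groups overlapped. These shares leave out 4 sequences (1.39% of miR-467 5p RPM) that did not hold TAAGTG or TAGGTG at their usual place. In 3 of them both A of the stretch were G, and 1 had the A but started earlier. With these 4 included, which was chosen after seeing the data, the share was 12.5, 0.985 and 41.3% in the WT samples and 15.1, 19.9 and 12.6% in the Tau tg samples, and it rested on 97 of 776 reads in WT 1.

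By miRNA, the share of reads with G was 11.4, 0.604 and 40.2% in the WT samples and 11.4, 15.5 and 7.11% in the Tau tg samples for miR-467a-5p. For miR-467c-5p, Tau tg 1 and Tau tg 3 had 40.5% (64 of 158 reads) and 47.3% (79 of 167 reads), while all 25 reads of WT 3 and 0 of 33 reads of WT 2 had G. For miR-467d-5p the Tau tg samples had 24.0, 45.8 and 11.5%, and WT 1, the only WT sample with more than 5 reads, had 0 of 29 or, with the sequence changed at both bases, 36 of 65. For miR-467c-5p in Tau tg 1 the latter count was 129 of 223. For miR-467e-5p only Tau tg 2 had more than 1 such read (18 of 86). No read named miR-467b-5p had the G, including 0 of 385 in Tau tg 1 (upper Wilson limit 0.988%), but a G read of Mir467b may carry the name miR-467a-5p, since most of the 2 arms is identical. For a single read form the numbers were uneven between mice. The commonest, tAGGTGCCtgcatgtatatgc, measured 0, 0.678 and 29.4 RPM in the WT samples and 3.42, 44.3 and 1.23 RPM in the Tau tg samples.

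**Figure D5:**
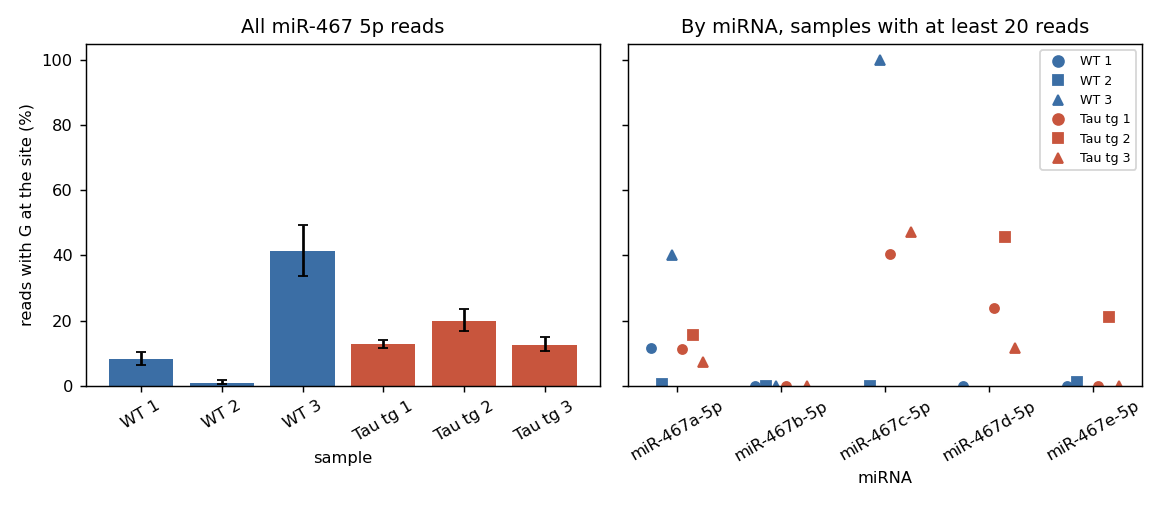
Left, percentage of miR-467 5p reads with G at the shared site in each sample, among reads with the A or the G form, with 95% Wilson intervals as bars. Right, the same percentage for each miRNA in samples with at least 20 of its reads. WT 3 is highest at 41.3% and WT 2 lowest at 0.845%, and the Tau tg samples lie between 12.6 and 19.9%.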

How the data were processed

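Short RNAs bound to Ago were sequenced from 3 WT and 3 Tau tg mouse brains, grouped by the sample titles. The authors trimmed the reads (Trim Galore is named in the submitters' processing notes), compiled unique sequences, removed rare reads and assigned names by BLAST with their SPOROS pipeline. The deposited values are RPM per sequence, scaled by the authors to the library. The deposited 6mer seed viability score (percent) was used as given, and the deposited total, a summed signal, was not used. Whole reads were recovered from the RPM steps (100% of values within 0.05 reads plus a small allowance for rounding of the RPM), at 998248 to 6879551 per sample. Molecular identifiers are not given in the sources used here.

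RPM were summed per mature name. limma 3.58.1 with a mean-variance trend was run on log2(RPM + 1) for all 689 mature miRNAs and all 36070 sequences whose mean reached 1 RPM, with Benjamini-Hochberg adjustment over all rows. Alternatives were other pseudocounts, filters and scalings, count models on the recovered reads (edgeR 4.0.16 with 29 and DESeq2 1.42.0 with 37 of the 689 miRNAs at an unadjusted p under 0.05), the replicate number as a block, and every sample left out in turn. Steps were tested on simulated data. Samples are separate mice per the study's methods, and tests are two-sided. Named members were the 20 with the highest mean, any with an unadjusted p under 0.05 and any above 0 in all 6 samples with a mean of at least 10 RPM and no group overlap; named reads were the commonest of the 10 most abundant members. Other reads and 1 member were chosen after their values were seen. The members and lists were chosen with earlier results of these data known. Sequences shown are deposited reads, matched to GENCODE M21 transcripts on GRCm38; 1 of 38 names had an entry in the RefSeq table. R 4.3.3 and Python 3.11.15 were used.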

Additional observations from a re-analysis of the deposited data

How the results depend on the processing

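No member passed adjustment under any of the 18 alternatives to the test of miRNAs, and no member sequence did under any of the 16 run for sequences. The count of member miRNAs at an unadjusted p under 0.05, 1 in the report, was 2 without a filter, 2 in limma without trend and 2 with only the commonest seed of each miRNA, and it ranged from 0 to 6 when each sample was left out. Over all miRNAs, 25 in the report, the count was 26, 34 and 29 in those fits and 18 to 50 on leaving out each sample. The count of member sequences, 10 in the report, was 3 with a pseudocount of 5, 6 with median-of-ratios scaling and 0 among rows of at least 10 RPM, and it ranged from 3 to 8 when each sample was left out. The causes were not tested, except that the stricter filter left 20 sequences to test. The summed level, the 3p share, the mean viability and the share with the commonest seed each moved by less than the larger SD of the 2 groups under every alternative run. The difference in mean viability was -1.69 percentage points without reads of joint names, against 0.0217 in the report. The difference in the share of miR-467 5p reads with G, Tau tg minus WT, was -1.72 percentage points, and -2.42 with the 4 sequences added.

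With the replicate number as a block, 1 member miRNA and 7 member sequences had an unadjusted p under 0.05 and 0 passed adjustment. Same-numbered samples of the 2 groups did not deviate together (correlations of -0.00201, -0.0693 and 0.0413 across miRNAs, which are not independent), so the numbers were not taken to pair mice.

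Of 516 log2 differences recomputed for the 30 named members and reads, 49 changed sign, 30 of them on leaving out a sample. With edgeR on recovered reads the log2 difference, Tau tg minus WT, was -0.27 for miR-669d-5p, -0.18 for miR-466d-3p, -0.44 for miR-669f-5p, -0.88 for aCTTGTGTgtgcatgtatatgt, -2.63 for aGTTGTGTgtgcatgttcatgt and -0.69 for tATACATAcacgcacacatagt. With DESeq2 it was -0.31 for miR-669d-5p, -0.31 for miR-466d-3p, -0.45 for miR-669f-5p, -1.06 for aCTTGTGTgtgcatgtatatgt, -2.74 for aGTTGTGTgtgcatgttcatgt and -1.03 for tATACATAcacgcacacatagt. With a pseudocount of 5 it was -0.082 for aCTTGTGTgtgcatgtatatgt, -0.39 for aGTTGTGTgtgcatgttcatgt and -0.074 for tATACATAcacgcacacatagt. With median-of-ratios scaling it was -0.14 for aCTTGTGTgtgcatgtatatgt and -0.0013 for tATACATAcacgcacacatagt. With only the commonest seed of each miRNA it was -0.57 for miR-467e-5p and 0.18 for miR-467b-5p. On leaving out each sample in turn, the log2 difference ranged over 0 from -0.24 to 0.79 for miR-467a-5p, -0.51 to 0.11 for miR-669a-3p/miR-669o-3p, -1.51 to 0.44 for miR-669a-5p/miR-669p-5p, -0.14 to 2.13 for miR-669d-5p, -0.28 to 1.53 for miR-467e-5p and -0.41 to 1.92 for miR-466d-3p. The range was -1.68 to 0.032 for miR-467b-5p, -2.34 to 0.43 for miR-297b-3p/miR-297a-3p/miR-297c-3p, -1.22 to 0.71 for miR-669f-3p, -1.80 to 0.86 for miR-466c-5p, -0.039 to 2.18 for miR-297a-5p and -0.96 to 1.16 for aCTTGTGTgtgcatgtatatgt. It was -0.96 to 2.38 for aGTTGTGTgtgcatgttcatgt, -1.83 to 0.38 for aTAAGTGTgagcatgtatatgt, -1.52 to 1.11 for tAAGTGCGtgcatgtatatgtgt and -1.09 to 1.56 for tATACATAcacgcacacatagt. Among these, edgeR gave an unadjusted p of 0.02 for aGTTGTGTgtgcatgttcatgt, which WT 2 dominates. Depth limits the low members, since 3 reads correspond to 0.427 to 2.75 RPM.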
